A study of Mus musculus with 12 samples.

Results

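Lung RNA of neonatal mice was compared between hyperoxia and normoxia on 6 of the 12 bead arrays of the series, those whose tissue label is lung. Of the 6, 3 came from hyperoxia and 3 from normoxia. Pups of the C57BL/6 strain (C57Bl/6J in the methods) breathed oxygen at a fraction of 0.85 in the hyperoxia group or 0.21, that of air, in the normoxia group, continuously for 11 days, and were 14 days old at collection. The labels name no transgene, deletion or drug for either group. The methods describe litters that were pooled at birth and shared out between the dams with the sexes spread evenly, after which a whole pooled litter went to each exposure and the dams were exchanged every day. Litter and exposure cannot be told apart where the samples of a group came from 1 litter, which the sources do not say. The labels name the right lung and the methods the left lower lobe. No source used here ties a replicate to an animal of its own, and the p-values below therefore cover the spread between these 6 samples, part of which may be technical. The source name of all 3 hyperoxia lung arrays reads ileum, against their tissue label, so the label was checked. The 10 lung marker genes (surfactant proteins, alveolar and airway genes) were detected on each of the 6 arrays, with a mean log2 signal of 12.85 ± 0.13 (SD, n = 6), as compared to 5.576 ± 0.078 (SD, n = 6) on the arrays labelled ileum.

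The mouse lung at this age is still dividing its distal airspaces into alveoli, a step that needs a double capillary network, elastin laid down at the septal tips by myofibroblasts, lipid-storing fibroblasts, and the type 1 and type 2 cells that line the airspace. Breathing high oxygen over this window is an established model of bronchopulmonary dysplasia, in which alveoli are fewer and larger and the capillary bed is reduced. Oxygen in excess damages DNA, lipids and proteins, to which cells answer through p53, NRF2 and the integrated stress response, and injured lung tissue recruits monocytes through chemokines.

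Each array reads biotin-labelled RNA in 1 colour with 45281 probes, and between 19609 and 20135 of them (43.3% to 44.5%) were detected above the negative controls of a lung array. Values below are log2 signals after background correction and quantile normalization, 1 probe for each gene. Of 19057 genes with a probe, 11214 were detected on at least 3 of the 6 arrays and were tested. Across these genes, arrays correlated with r of 0.981 to 0.987 within normoxia, 0.972 to 0.984 within hyperoxia and 0.935 to 0.949 between the groups. On the leading principal component (64.8% of variance) the groups lay apart. Hyperoxia replicate 3 lay furthest from the mean of its group, with a root mean square deviation of 0.297 log2 units as compared to 0.181 to 0.241 on the other 5 arrays. Some genes whose value rests on it are given with and without it. Others that were highest on it, among them Ccl11, Trem2, Cpa3, Gpnmb and Slc26a4, are given with it only. Mean intensity was 455 to 495 on the normoxia and 422 to 637 on the hyperoxia arrays.

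Between hyperoxia and normoxia 2297 of the 11214 genes (20.5%) differed at an adjusted p under 0.05 by limma, 1110 of them higher (9.90%) and 1187 lower (10.6%). These last percentages are the background against which the gene lists below are read. Some genes stand in several lists, Tek for example in the pan-endothelial, general capillary and VEGF lists, so the list counts are not independent. At least 2-fold changes were found for 993 genes (8.86%), 475 higher (4.24%) and 518 lower (4.62%), and the median change of all tested genes was 0.02 on the log2 scale. The 3 hyperoxia arrays lay wholly above the 3 normoxia arrays for 2512 genes (22.4%) and wholly below them for 2347 (20.9%). Leaving out 1 array at a time left 1612 to 1998 genes, and without normoxia replicate 1 the rises numbered 732.

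**Figure D1:**
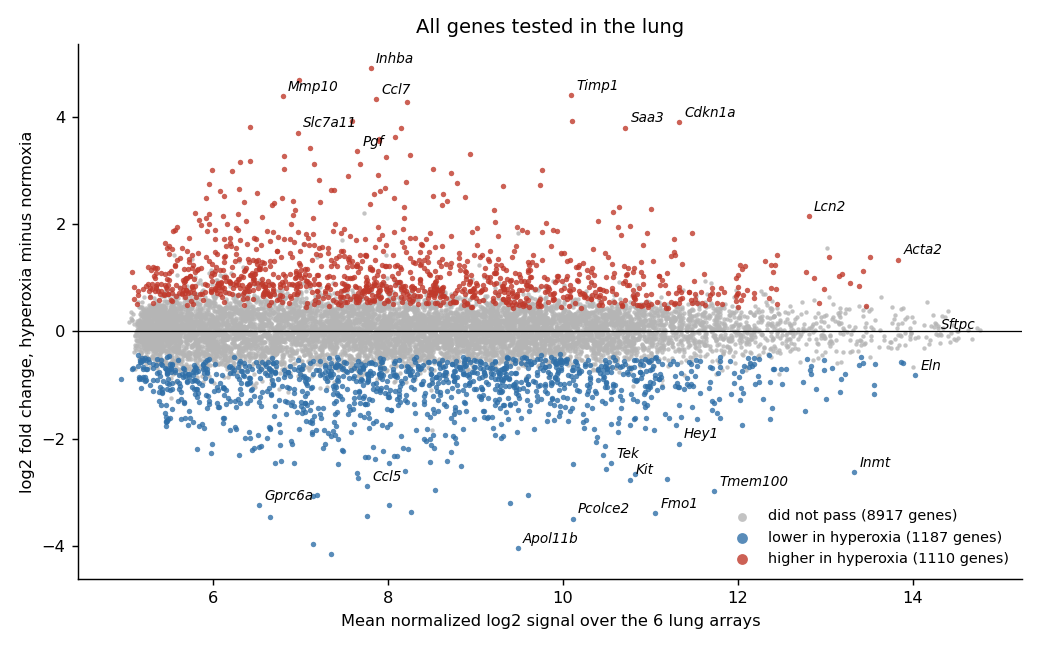
Each point is 1 of the 11214 genes, with its mean log2 signal over the 6 lung arrays on the x axis and its log2 fold change, hyperoxia minus normoxia, on the y axis, coloured by whether it passed at an adjusted p under 0.05. Rises (1110) and falls (1187) are spread over the whole range of signal, with Cdkn1a, Timp1 and Lcn2 high among the bright genes and Tmem100, Fmo1 and Inmt low, while Sftpc lies on the zero line.

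The largest rises among genes detected on all 6 arrays were those of a protease inhibitor, monocyte chemokines and the cell cycle inhibitor p21. Timp1, which blocks matrix metalloproteinases, was at 7.89, 7.86 and 7.92 on the normoxia arrays and at 11.75, 12.37 and 12.77 on the hyperoxia arrays, a 21.2-fold rise (log2 4.41, standard error 0.34, adjusted p = 1.28e-06). Cdkn1a, which encodes p21 and halts the cycle downstream of p53, stood at 9.35, 9.32 and 9.46 in normoxia and at 13.30, 13.50 and 13.03 in hyperoxia, a 15-fold rise (standard error 0.19, adjusted p = 1.62e-08). The normoxia arrays lay close together for both genes, while the hyperoxia arrays were more spread for Timp1 (SD 0.52) than for Cdkn1a (SD 0.24). For each gene the hyperoxia arrays lay more than 3 log2 units above the highest normoxia array. Ccl7, a ligand of the monocyte receptor CCR2, rose 20.2-fold from 5.76, 5.76 and 5.57 to 9.95, 9.99 and 10.16, again with no overlap. Rgs16, a regulator of G protein signalling, rose by 3.63 on the log2 scale, Mgmt, which removes alkyl groups from DNA, by 3.55 (2.81 by its other probe), Pgf, placental growth factor, by 3.36, and AA467197 by 4.29.

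A second set of large rises was uneven within hyperoxia. Arg1, the arginase of macrophages, was at 6.48, 5.94 and 6.35 in normoxia and at 8.33, 10.06 and 11.75 in hyperoxia. Ccl8, a chemokine of macrophages, was at 5.36, 5.85 and 5.67 as compared to 8.35, 8.70 and 11.58. The lowest hyperoxia array was above every normoxia array for both, with hyperoxia replicate 3 the highest. Their log2 fold changes of 3.79 (standard error 0.58) and 3.92 (standard error 0.59) were 2.93 and 2.90 without that array, and 4.64 and 4.51 without hyperoxia replicate 1, and the other probe of Arg1 had 3.02. Gpnmb, a glycoprotein of lipid-loaded macrophages, rose by 3.92, with hyperoxia values of 11.60, 11.38 and 13.23, and by 2.09 by its other probe. Saa3, an acute phase apolipoprotein, rose 13.9-fold from 8.43, 9.86 and 8.14 to 13.22, 12.76 and 11.85, and Cxcl1, which attracts neutrophils, rose 12.0-fold.

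**Figure D2:**
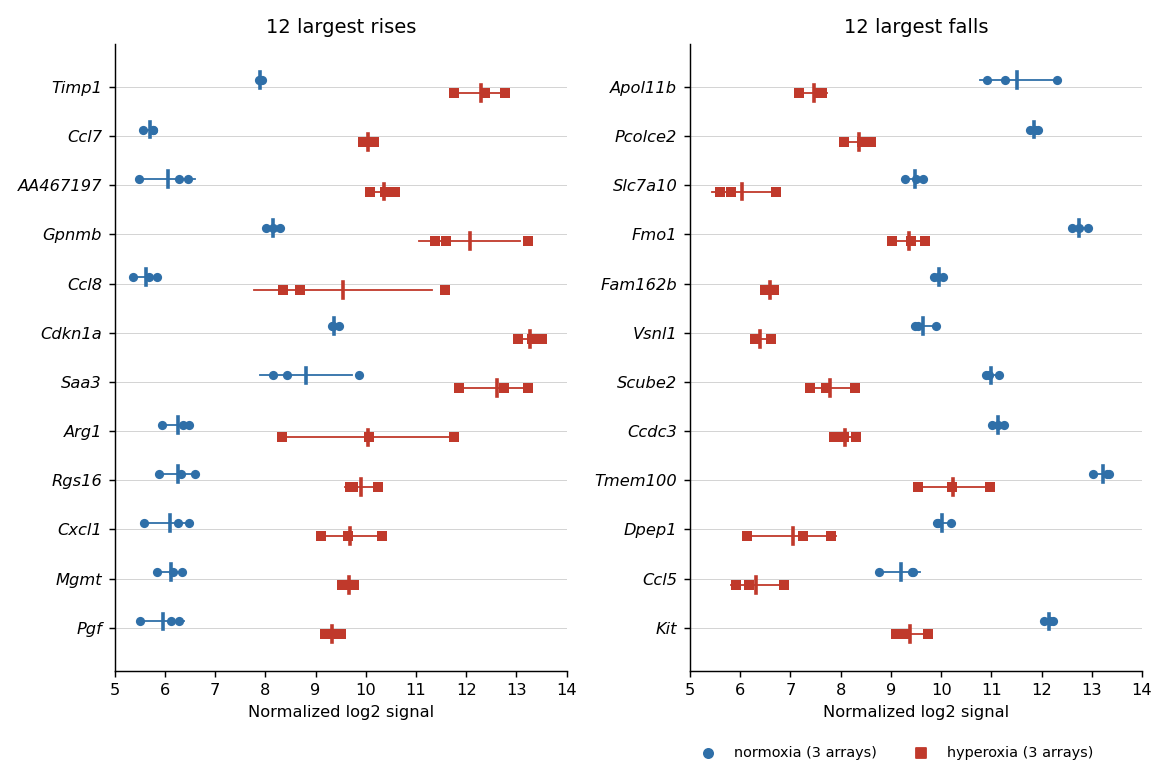
Normalized log2 signal (x axis) on each of the 3 normoxia (blue circles) and 3 hyperoxia (red squares) arrays for the 12 largest rises and the 12 largest falls, with the group mean as a tick and 1 SD as a line. The groups do not overlap for any of the 24 genes, as their selection required, and the widest hyperoxia spreads are those of Ccl8 and Arg1.

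Apol11b led the falls among genes detected on all 6 arrays. Apol11b, of the apolipoprotein L family, fell 16.5-fold from 12.31, 10.92 and 11.28 to 7.16, 7.64 and 7.59. Pcolce2, an enhancer of procollagen processing, fell 11.3-fold from 11.93, 11.78 and 11.86 to 8.42, 8.60 and 8.07 (log2 -3.50, and -2.91 by its other probe). Fmo1, a flavin-containing monooxygenase, fell 10.5-fold from 12.74, 12.92 and 12.60 to 9.39, 9.67 and 9.02 (log2 -3.39, and -2.76 by its other probe). For these genes the groups lay well apart, and the replicates of each group were close to each other except for the first normoxia array in Apol11b. Also lower were Slc7a10, a transporter of small neutral amino acids (log2 -3.43), Fam162b (-3.36), Vsnl1, a neuronal calcium sensor (-3.24), Scube2, a carrier of secreted hedgehog ligands (-3.21), Ccdc3 (-3.05), Tmem100, an endothelial target of BMP signalling (-2.98), and Dpep1, a dipeptidase (-2.95). Kit, the receptor of stem cell factor, fell 6.79-fold from 12.16, 12.22 and 12.06 to 9.10, 9.75 and 9.30. Among the brightest genes, Acer2, a ceramidase, fell by 2.75, Gata2, a haematopoietic and endothelial transcription factor, by 1.84, Ramp2, a partner of the adrenomedullin receptor, by 1.74 and the amino acid transporter Slc38a5 by 1.64. Inmt, a methyltransferase abundant in lung, was at 14.72, 14.59 and 14.61 in normoxia and at 11.13, 11.31 and 13.59 in hyperoxia, a log2 change of -2.63 that was -3.42 without hyperoxia replicate 3 and -3.71 by its other probe.

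Of the 2297 genes, 141 were detected in 1 exposure only, 68 of them higher and 73 lower in hyperoxia. For such a gene the fold is a lower limit, taken against the lowest signal that counted as detected on each array of the dim group, and a gene of this kind passed the detection filter only through the group in which it was bright. Some genes given below with a fold or log2 change were detected on 1 or 2 of the 3 arrays of their dim group, and these values rest in part on signals at background. Among them are Atf3, Bmp6, Ccl3, Cma1, Col17a1, Cxcl10, H2-Oa, Hamp, Il11, Inhba, Mmp12, Ngp, Nkg7, Orm1, Reg3g and Slc7a11. Chodl, a C-type lectin-like membrane protein, was at 4.55, 4.66 and 4.68 in normoxia, not detected, and at 9.77, 8.55 and 9.66 in hyperoxia, at least 17.2-fold higher. Mmp10, stromelysin 2, was at least 13.6-fold higher, the chemokine Ccl2 at least 8.66-fold, the mast cell chymase Cma2 at least 6.91-fold, Bean1 at least 6.35-fold, the drug efflux pump Abcb1b at least 5.59-fold, the phospholipase Pla1a at least 5.29-fold (log2 1.05 and 1.15 by its other probes) and Nppb, which encodes brain natriuretic peptide, at least 4.83-fold. In the other direction Gprc6a, an amino acid-sensing receptor, was at 8.29, 8.35 and 7.80 in normoxia and not detected in hyperoxia, at least 7.49-fold lower. Pllp was at least 3.62-fold lower, Hsd11b2, which inactivates glucocorticoids, at least 3.16-fold (log2 -1.58 by its other probe), the potassium channel gene Kcnh1 at least 2.80-fold, the retinoic acid-binding protein gene Crabp1 at least 2.76-fold, the transcription factor gene Msc at least 2.57-fold, Tmem121b at least 2.36-fold and Tet1, an oxidase of methylated cytosine, at least 2.32-fold.

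Genes of growth arrest and genes of cell division were both higher in hyperoxia. Of 30 listed p53 targets, 25 were tested, of which 12 rose, 2 fell and 11 did not pass, with a median log2 change of 0.70. Beside Cdkn1a, Ccng1, a p53-induced cyclin, rose 4.97-fold from 9.41, 9.66 and 9.37 to 11.77, 12.24 and 11.39 (log2 2.31, and 3.18 and 3.04 by its other probes), and Mdm2, the ubiquitin ligase that limits p53, rose 2.48-fold from 10.18, 10.56 and 10.38 to 11.67, 11.88 and 11.51. In both the groups lay apart. Phlda3, a p53-induced inhibitor of AKT, rose by 1.72 and Zmat3, an RNA-binding p53 target, by 1.86. Ddit4l, an inhibitor of mTOR signalling, rose by 2.62. Sulf2, a heparan sulfatase, rose by 1.88, but its other tested probe did not pass (log2 -0.11). Sesn1, a sestrin, went the other way and fell by 1.25. The death-promoting members Tnfrsf10b, Fas, Bbc3 and Pmaip1 had values of 0.67, -0.25, 0.43 and 0.70 and did not pass. No probe of Pmaip1 had a detection p under 0.01 on all 3 arrays of either group.

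Of 40 genes of the cell cycle and DNA replication, 29 were tested, and 25 rose, 0 fell and 4 did not pass, with a median of 1.02. Cdk1, the kinase that drives entry into mitosis, was at 7.54, 7.09 and 7.55 in normoxia and at 8.87, 8.84 and 9.22 in hyperoxia, a 2.99-fold rise (standard error 0.21, adjusted p = 1.56e-04). Top2a, the topoisomerase of dividing cells, rose 2.78-fold from 7.25, 7.74 and 7.41 to 8.74, 9.06 and 9.01. The groups did not overlap for either gene, and another probe of Top2a did not pass (0.92). The spindle protein gene Prc1 rose by 1.46, Cdca8 by 1.42 and the ribonucleotide reductase subunit gene Rrm2 by 1.34, while Pcna (0.46), Mcm7 (0.48), Bub1b (0.76) and Cenpa (0.66) did not pass, the last pair passing in 7 and 9 of 20 alternative settings. The letters TTTGAA, the cell cycle homology region, were found on either strand in 6 of the 21 genes of this list that rose and have a promoter. Of all 25 tested genes of the list with a promoter 6 held them, as did 18.3% of 27025 genes with one. A gene counted where any of its promoters matched, here and for the motifs below. The rises numbered 15 without normoxia replicate 1, 15 without hyperoxia replicate 3 and 16 in an ordinary linear model. Macrophage markers, described below, were higher on the same arrays, and their part in the cell cycle result was not tested.

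Cytokines of the interleukin-6 family, their acute phase targets and chemokines were higher in hyperoxia. Of 29 listed genes of the family and the acute phase, 24 were tested (4 of them detected in 1 exposure only), and 13 rose, 2 fell and 9 did not pass, with a median of 0.98, or 0.88 with those 4 at their limits. Il6 itself was at 4.54, 4.78 and 4.54 in normoxia, detected on 0 of 3 arrays. In hyperoxia it was at 5.54, 7.21 and 6.93, detected on 3 of 3, at least 2.53-fold higher (adjusted p = 6.00e-04). Yet no probe of Il6 had a detection p under 0.01 on all 3 arrays of either group. Il11, an interleukin of stromal cells, was at 5.58, 5.40 and 5.22 as compared to 7.40, 10.30 and 8.75, a 10.6-fold rise (log2 3.41, 2.67 without hyperoxia replicate 2 and 4.12 without hyperoxia replicate 1). The hyperoxia arrays were scattered for both and lay above all normoxia arrays. Lif was at least 4.30-fold higher, and Osm, oncostatin M, rose by 2.18 (1.56 without hyperoxia replicate 3). Its receptor gene Osmr rose by 1.29. Among the targets of this signalling, Socs3, its feedback inhibitor, rose 3.73-fold from 8.92, 9.02 and 8.87 to 10.85, 10.74 and 10.91. Serpina3n, a serine protease inhibitor, rose by 2.23, the acute phase glycoprotein gene Orm1, detected on 1 of 3 normoxia arrays, by 2.15 and the transcription factor gene Junb by 1.96. The lipocalin Lcn2, which binds iron carriers of bacteria and ranks among the brightest genes here, rose 4.42-fold from 11.94, 11.78 and 11.49 to 14.10, 13.81 and 13.74. Il1b was at 7.00, 8.33 and 8.06 in normoxia and at 7.73, 8.54 and 9.04 in hyperoxia, overlapping groups that did not pass (log2 0.64, adjusted p = 0.235), and Tnf was detected on 1 array and was not tested.

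Of 32 chemokine genes, 26 were tested (3 detected in 1 exposure only), and 16 rose, 2 fell and 8 did not pass, with a median of 1.44. The 5 neighbours on chromosome 11, in the order Ccl2, Ccl7, Ccl11, Ccl12 and Ccl8 in the RefSeq annotation, all rose. They were picked with earlier results known, so that all 5 rose was fixed by the choice. Ccl2 was at 4.51, 4.58 and 4.45 in normoxia and at 8.62, 8.37 and 8.02 in hyperoxia. Ccl12 rose 3.36-fold from 7.39, 7.51 and 7.24 to 9.02, 9.07 and 9.30. Ccl11, eotaxin, rose 2.75-fold, with 7.16, 6.94 and 8.73 in hyperoxia. The neighbours rose by unequal amounts, from 1.46 to 4.34 on the log2 scale, and no normoxia array reached a hyperoxia array. Ccl3 and Ccl9, ligands of CCR1, rose by 3.28 and 3.00, Ccl3 being detected on 1 of 3 normoxia arrays, and Ccl17, a ligand of CCR4, by 2.41.  The 2 that fell were Ccl5, made by cytotoxic lymphocytes, from 9.44, 9.41 and 8.76 to 5.92, 6.17 and 6.88 (7.37-fold), and Cxcl14 by 1.69.

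The kappa B element, bound by NF-kappa B, is known from the promoters of several of these genes, and the stretches that hold it are shown because Cxcl1, Cxcl2 and Il6 were among the cytokines that rose. Capitals mark the match, which was GGG, any 3 bases and TTCC, searched on both strands of the 250 bases before the start site (RefSeq, GRCm38.p6).
Cxcl1: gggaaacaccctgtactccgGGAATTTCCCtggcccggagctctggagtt
Cxcl2: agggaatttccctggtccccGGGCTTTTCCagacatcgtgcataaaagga
Il6: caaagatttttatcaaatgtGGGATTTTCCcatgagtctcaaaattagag
They lie at chr5:90891155-90891204 (forward strand), chr5:90903801-90903850 (forward strand) and chr5:30013050-30013099 (forward strand), with the match beginning 70, 78 and 44 bases before the start. Cxcl1 and Cxcl2 each hold 3 matches. In both, matches that overlap on opposite strands were counted singly, so the separate sites are fewer than the matches. Of 16 chemokines that rose, 10 had a promoter in the table and 4 of these held a match (Ccl9, Cxcl1, Cxcl2 and Cxcl10). Of all 19 tested chemokines with a promoter, 4 did. Of the interleukin-6 and acute phase genes that rose, 2 of 10 held one (Il6 and Serpina3n), and 2 of all 18 tested with a promoter. Among 27025 genes with a promoter, 5.31% hold one. A match describes letters and is not a measured binding site. Cxcl2 was at least 3.18-fold higher, and Cxcl10 rose by 1.86, with its other tested probe at 0.69 and not past the test.

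Markers of monocytes and recruited macrophages were higher in hyperoxia. In bulk tissue, a change in the number of cells of a type and a change in RNA per cell cannot be told apart, here and for all cell type lists that follow. Of 29 listed markers 23 were tested, and 16 rose, 0 fell and 7 did not pass, with a median of 1.19, and their summed log2 signal was 14.35 to 15.28 on the normoxia and 15.56 to 16.36 on the hyperoxia arrays. Trem2, a lipid-sensing receptor, was at 6.92, 6.72 and 6.79 as compared to 9.08, 9.00 and 10.73, a 6.91-fold rise. Ms4a7 rose by 1.78 (1.05 by its other probe), Adgre1, the F4/80 antigen, by 1.19, and the complement genes C1qb and C1qc, which tissue macrophages make, by 1.47 and 1.24. Cx3cr1, a chemokine receptor of monocytes, did not pass (-0.30). Of 17 tested complement genes in all, 10 rose and 1 fell (6 rose without normoxia replicate 2 and in an ordinary linear model). Among them Masp1, a protease of the lectin pathway, rose by 2.63, although its other tested probe had 0.20 and did not pass. Factor B (Cfb) rose by 1.38, while C7 fell by 1.50, with its other tested probe at -0.65 and not past the test. Resident alveolar macrophage markers were divided, with 3 of 12 higher and 3 lower, and 1 was higher without normoxia replicate 2, normoxia replicate 3, hyperoxia replicate 1 or hyperoxia replicate 2. Of the 3 lower, Car4 also counts in the list of capillary aerocytes below. Mrc1, the mannose receptor, rose by 1.08, whereas Krt79 was at least 2.08-fold lower.

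Of 14 tested neutrophil markers, 3 rose, 1 fell and 10 did not pass, with a median of -0.30. Clec4d, a C-type lectin of myeloid cells, rose 5.64-fold from 6.51, 7.42 and 6.51 to 9.17, 9.15 and 9.62, the decoy receptor gene Il1r2 was at least 1.99-fold higher, and Lcn2, given above, is shared with other cells. Ngp, a granule protein, fell by 1.32 and was detected on 1 of 3 hyperoxia arrays. S100a8 and S100a9, the calgranulins of neutrophils, were at 11.38, 12.85 and 11.72, and at 10.30, 11.85 and 10.69, in normoxia, and at 10.55, 11.81 and 11.94, and at 9.30, 10.61 and 10.89, in hyperoxia. Their groups overlapped. Mast cell proteases rose. Cpa3, carboxypeptidase A3, went from 6.26, 5.40 and 5.75 to 8.00, 8.14 and 9.73 (7.07-fold, log2 2.82, and 1.03 by another probe), Cma1 rose 5.60-fold (log2 2.48, and 1.78 without hyperoxia replicate 3), and Mcpt4 and Tpsb2 were at least 3.85-fold and 4.49-fold higher, the latter with a fitted log2 difference of 2.63 that was 1.85 without hyperoxia replicate 3. Fcer1a, the IgE receptor chain, did not pass (0.44), and no probe of it had a detection p under 0.01 on all 3 arrays of either group. Kit and Gata2, which mast cells share with endothelium, fell. In all, 4 of 8 tested markers of the mast cell list rose and 2 fell. Of 17 tested genes of type 2 immunity, 7 rose and 3 fell, with Chia1, an acidic chitinase, down by 1.82.

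Lymphocyte genes were lower in hyperoxia. Of 12 tested T cell genes 6 fell and 1 rose, with a median of -1.04, of 10 tested B cell and plasma cell genes 8 fell and 1 rose (-1.14), and of 5 tested natural killer and cytotoxic genes 3 fell (-1.73). Cd79b, a chain of the B cell receptor, was at 9.98, 9.96 and 9.89 in normoxia and at 8.10, 8.24 and 8.63 in hyperoxia, a 3.07-fold fall. Nkg7, a granule protein of cytotoxic cells, fell 5.48-fold from 7.92, 8.35 and 7.53 to 4.84, 5.44 and 6.14. The T cell receptor chain gene Cd3d was at 8.28, 8.43 and 8.20 as compared to 5.37, 6.24 and 7.73, a log2 change of -1.85 that was -2.49 without hyperoxia replicate 3, the highest of the hyperoxia arrays in each of these genes. The adhesion receptor gene Cd2 fell by 1.79, the B cell genes Fcrla and Blk by 1.46 and 1.29, and the killer cell receptor gene Klrd1 by 1.73. The exceptions were Cd8b1, up by 0.58, whose other 2 tested probes did not pass (-0.22 and -1.47) and which was at -0.37 by the mean of its probes, and Sdc1, a syndecan of plasma cells and epithelium, up by 0.52. The call of Cd8b1 was lost without normoxia replicate 1 or 3 or hyperoxia replicate 2 or 3 (adjusted p of 0.0744 to 0.139) and that of Sdc1 without any 1 of the 6 (0.0630 to 0.151). The falls among B cell genes numbered 3 without normoxia replicate 2 and 5 without hyperoxia replicate 1. The summed signal of the T cell genes was 11.79 to 12.08 in normoxia and 11.40 to 12.22 in hyperoxia, where Cd8b1 is the brightest member, and that of the B cell genes 13.73 to 14.00 and 13.35 to 13.60.

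Of 15 tested genes of MHC class I presentation, 7 fell, 0 rose and 8 did not pass, with a median of -0.63. Nlrc5, the activator of class I genes, fell by 1.42, the class I gene H2-Q7 by 1.37, though its other tested probe did not pass (-0.15), and the immunoproteasome subunit Psmb9 by 1.26. The falls in this list numbered 11 with array weights, 4 without normoxia replicate 1 or 2 and 3 without hyperoxia replicate 1 or 2. Of the 24 interferon-response genes tested, 5 fell, 3 rose and 16 did not pass, with a median of 0.02. Ifi47, a GTPase induced by interferon gamma, fell 3.79-fold from 9.48, 9.66 and 9.28 to 7.54, 7.10 and 8.01. Its relatives Igtp and Gbp2 fell by 1.48 and 1.43, the other tested probe of Gbp2 not passing (-0.95), while Ifit3, a target of type I interferon, rose by 1.03. Of 10 tested class II genes 2 fell, H2-Oa by 1.29 and H2-Ob by 1.21. The lymphocyte genes fell on the same arrays, and their part in this result was not tested.

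Among the matrix proteases, 4 of the 5 tested genes in the region of chromosome 9 from Mmp13 to Mmp10 rose. The region was bounded by genes that rose, so this share was fixed in part by that choice. Of 28 listed proteases and inhibitors 22 were tested, and 8 rose, 2 fell and 12 did not pass. Shown are the promoter stretches of the 4 genes of this region that rose, in which capitals mark the match to TGANTCA, the letters of an AP-1 site.
Mmp13: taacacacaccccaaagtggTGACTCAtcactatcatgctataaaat
Mmp12: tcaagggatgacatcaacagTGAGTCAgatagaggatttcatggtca
Mmp3: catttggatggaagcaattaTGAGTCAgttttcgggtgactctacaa
Mmp10: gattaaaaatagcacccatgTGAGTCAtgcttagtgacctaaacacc
They lie at chr9:7272459-7272505 (forward strand), chr9:7347310-7347356 (forward strand), chr9:7445756-7445802 (forward strand) and chr9:7502259-7502305 (forward strand) of GRCm38.p6, with the match beginning 35, 44, 46 and 63 bases before the start. Of the 8 proteases and inhibitors that rose, 6 had a promoter in the table and these 4 held a match within 250 bases. Of all 17 tested genes of the list with a promoter 4 held one, as did 7.82% of 27025 genes with a promoter. Mmp13, collagenase 3, was at 6.58, 6.93 and 6.28 in normoxia and at 10.30, 9.72 and 9.66 in hyperoxia, a 9.82-fold rise by its brightest probe, while its other tested probes had log2 1.36, which passed, and 0.21, which did not. Mmp12, the elastase of macrophages, rose 8.76-fold from 6.55, 5.46 and 4.75 to 8.71, 8.51 and 8.94. Mmp3, stromelysin 1, rose 6.41-fold from 6.68, 6.18 and 7.01 to 10.02, 9.96 and 7.94 (log2 2.68, and 3.36 without hyperoxia replicate 3). All 4 were separate between the groups, whereas Mmp1a, which lies between Mmp3 and Mmp10, was at 6.43, 6.95 and 6.94 and at 6.61, 7.20 and 6.89 and did not pass (0.13). Adamts4, an aggrecanase, rose by 2.43 and the lysosomal protease gene Ctsb by 1.04. The gelatinase gene Mmp9 (-0.36) and Timp2 (-0.15), a relative of Timp1, did not pass.

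**Figure D3:**
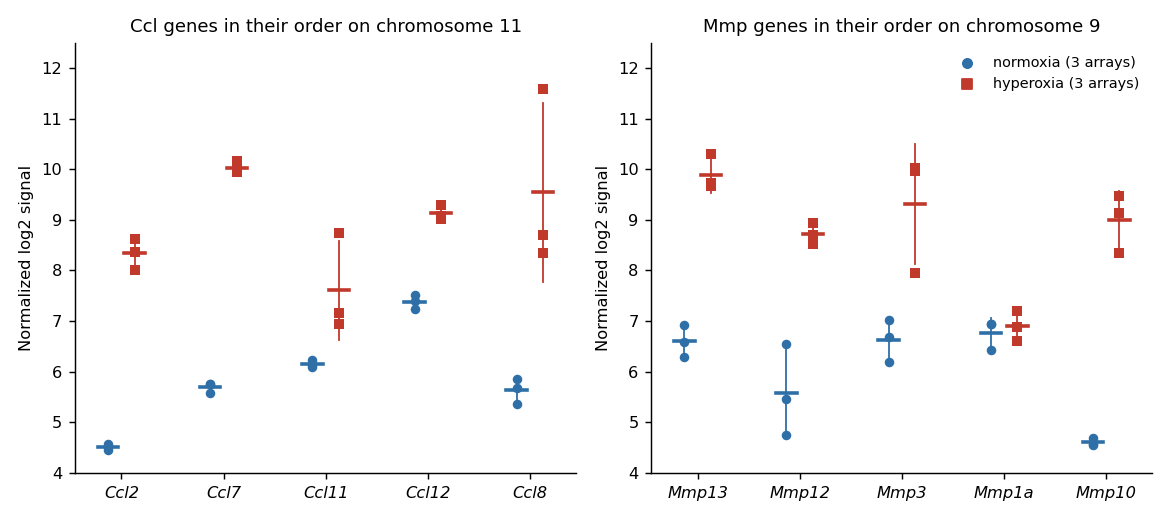
Normalized log2 signal (y axis) on each normoxia (blue circles) and hyperoxia (red squares) array for neighbouring genes, in their annotated order, with group means and 1 SD. All 5 Ccl genes are higher on every hyperoxia array, and so are 4 of the 5 tested Mmp genes, while the groups of Mmp1a overlap. Both regions were bounded by genes that rose, so these counts were fixed in part by that choice.

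Matrix genes split by kind. Of 16 tested genes of provisional matrix and matricellular proteins 12 rose, 1 fell and 3 did not pass, with a median of 1.31 (1.26 with 2 genes at their limits). Thbs1, thrombospondin 1, was at 6.78, 6.48 and 6.40 as compared to 9.07, 10.02 and 8.28, a 5.92-fold rise. Ccn2, connective tissue growth factor, rose 2.60-fold from 12.81, 12.77 and 12.89 to 14.19, 14.45 and 13.99. Both were separate between the groups. Ccn1 rose by 2.03, the proteoglycan gene Vcan was at least 3.33-fold higher, the hyaluronan synthase gene Has2 at least 2.42-fold, and tenascin C (Tnc) rose by 1.24. Thbs2 fell by 0.99. The fibrillar collagen gene Col1a1 did not pass, at 12.85, 12.86 and 13.34 in normoxia and at 12.46, 13.31 and 12.92 in hyperoxia (log2 -0.12, adjusted p = 0.826). Of 26 tested collagen chains 3 rose, 4 fell (2 without normoxia replicate 3) and 19 did not pass, the rises being those of Col8a1, a collagen of vessels, by 1.82, Col18a1, of basement membranes, by 1.41 and the fibrillar collagen gene Col5a2 by 0.78, whose call was lost without any of the 3 normoxia arrays or hyperoxia replicate 1 or 2 (adjusted p of 0.0734 to 0.13). Col17a1, of hemidesmosomes, fell by 1.81 by its brightest probe, detected on 1 of 3 hyperoxia arrays, and had -1.10 by another.

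Of 14 tested genes of the elastic fibre and its crosslinking, 4 fell, 1 rose and 9 did not pass. Eln, tropoelastin, was at 14.45, 14.48 and 14.39 in normoxia and at 13.75, 13.85 and 13.26 in hyperoxia, a 1.76-fold fall (log2 -0.82, standard error 0.18, adjusted p = 0.00613), while its other, dimmer probe fell further (log2 -2.18, adjusted p = 2.67e-06). Mfap2, a microfibril protein, fell 3.06-fold from 11.96, 12.19 and 11.91 to 10.43, 10.15 and 10.64, and Ltbp4, which anchors latent TGF-beta and guides elastin assembly, fell by 1.36. The groups lay apart in all 3. Loxl4, a crosslinking enzyme, rose by 0.89, and its other tested probe did not pass (0.52).

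In the activin, TGF-beta and BMP pathway, of 30 tested genes 5 rose and 7 fell. Ligands and antagonists of activin led the rises. Inhba, the activin A subunit, was at 5.06, 5.55 and 5.43 in normoxia and at 10.54, 10.43 and 9.79 in hyperoxia, a 30.0-fold rise (standard error 0.22, adjusted p = 1.15e-08), with 2 of 3 normoxia arrays above detection. Fst, follistatin, which binds activin, rose by 2.26. Bmp7 was at least 3.12-fold higher by its brightest probe, and its other tested probe did not pass (0.02). Several receptors and BMP ligands were lower. Acvrl1, the ALK1 receptor, fell 2.48-fold from 8.83, 8.90 and 8.65 to 7.26, 7.56 and 7.64, Bmp6 fell by 1.57, the co-receptor gene Tgfbr3 by 1.37 and Gdf10 by 1.40. Tgfb2 and Tgfb3 had values of -0.16 and 0.14 and did not pass. Of 16 tested genes of the insulin-like growth factor axis 3 rose and 4 fell (1 without normoxia replicate 1, 2 without hyperoxia replicate 1). Igf1 rose 9.90-fold from 7.48, 7.07 and 7.30 to 10.75, 10.90 and 10.12, while the binding protein gene Igfbp3 fell by 1.13.

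Stress responses were higher, each through part of its genes. Of 26 tested genes of the integrated stress response and amino acid synthesis 14 rose, 3 fell and 9 did not pass, with a median of 0.62 (9 rose without normoxia replicate 1, 1 fell without normoxia replicate 2). The composite element TGATGNAA, recognised by ATF4 with a C/EBP partner, is shown in capitals, in either orientation, for 3 genes that rose and hold it, Slc7a11 being of the NRF2 list below.
Asns: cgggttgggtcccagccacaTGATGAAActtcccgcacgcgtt
Atf3: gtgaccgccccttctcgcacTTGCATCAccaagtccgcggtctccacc
Slc7a11: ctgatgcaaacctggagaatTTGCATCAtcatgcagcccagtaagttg
These stretches lie at chr6:7693210-7693252 (reverse strand), chr1:191183416-191183463 (reverse strand) and chr3:50443633-50443680 (reverse strand) of GRCm38.p6. Of 12 genes of the list that rose and have a promoter in the table, 3 hold the element, Atf3 and Asns among them. So do 7 of all 23 tested genes of the list with a promoter and 3.91% of 27025 genes with one. Atf3, a stress-induced repressor, was at 5.35, 4.83 and 5.43 in normoxia and at 7.60, 7.42 and 8.35 in hyperoxia, a 6.01-fold rise. Slc7a11, the cystine importer that feeds glutathione synthesis, was at 5.26, 4.96 and 5.13 as compared to 8.89, 8.77 and 8.79, a 13-fold rise (log2 3.70, standard error 0.17, adjusted p = 1.15e-08) by a probe that was detected on 1 of 3 normoxia arrays, and its other probe rose by 1.57. Asns, asparagine synthetase, rose 2.21-fold from 8.84, 8.60 and 8.90 to 9.95, 10.00 and 9.82. In each, the highest normoxia array was below the lowest hyperoxia array. Ddit3, which encodes CHOP, rose by 1.62 and the mitochondrial folate enzyme gene Mthfd2 by 1.42. Slc6a9, a glycine transporter, fell by 1.11.

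Of 29 tested NRF2 targets and glutathione genes 10 rose, 0 fell and 19 did not pass, with a median of 0.41. Srxn1, sulfiredoxin, was at 7.59, 7.31 and 7.48 in normoxia and at 9.91, 9.88 and 9.85 in hyperoxia, a 5.36-fold rise (log2 2.42, and 1.76 by another probe). Hmox1, heme oxygenase 1, rose 5.72-fold from 7.61, 7.67 and 7.58 to 10.27, 9.87 and 10.26. In both genes the replicates lay close together and the groups far apart. The aldo-keto reductase gene Akr1b8 rose by 2.37, the glutathione peroxidase gene Gpx2 by 1.60 and Me1, which makes NADPH, by 1.34. Classical targets such as Nqo1 (0.69), Gclc (0.87) and Gclm (0.40), and the glutathione transferases Gsta3 (-0.48) and Gstm1 (-0.66), did not pass. The antioxidant response letters TGACNNNGC were found in 1 of 9 genes that rose and have a promoter. They were found in 5 of 24 tested genes of the list with a promoter and in 11.5% of all 27025 genes with one. Mt1, a metallothionein, rose by 1.38, and Hamp, which encodes hepcidin, fell by 2.17 (-2.90 without normoxia replicate 2).

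Genes known as targets of the hypoxia-inducible factors and of glycolysis were higher in hyperoxia. Of 23 tested, 13 rose, 1 fell and 9 did not pass, with a median of 0.60. Egln3 and Slc2a1 are shown with their ACGTG core, the letters that hypoxia-inducible factors bind, in capitals.
Egln3: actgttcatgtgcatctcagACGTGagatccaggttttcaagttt
Slc2a1: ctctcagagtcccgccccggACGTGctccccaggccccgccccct
The stretches lie at chr12:54204079-54204123 (reverse strand) and chr4:119108689-119108733 (forward strand) of GRCm38.p6. The core is short and common, held on either strand by 18.5% of 27025 genes with a promoter. It was held by 14 of 22 tested genes of this list with a promoter, 10 of them among the 13 that rose. Egln3, an oxygen-sensing prolyl hydroxylase, was at 5.40, 5.73 and 5.37 in normoxia and at 7.64, 7.59 and 8.33 in hyperoxia, a 5.11-fold rise. Slc2a1, the glucose transporter GLUT1, rose 2.49-fold from 8.05, 8.30 and 8.40 to 9.50, 9.37 and 9.82. The groups lay apart for both. Adm, adrenomedullin, rose by 1.86, and the glycolytic genes Pgk1, Gapdh and Pgam1 by 1.02, 1.00 and 0.92. Vegfa, the vascular endothelial growth factor, was at 12.37, 12.25 and 12.02 as compared to 11.47, 11.77 and 11.39 and did not pass (-0.67, adjusted p = 0.0552, though it passed in 10 of 20 alternative settings), and Pdk1 fell by 0.70. The gene of the factor HIF-2 alpha itself, Epas1, which is rich in lung endothelium, fell 4.75-fold from 9.82, 9.99 and 9.72 to 7.94, 8.62 and 6.22 (log2 -2.25, and -1.56 without hyperoxia replicate 3), while its other probe fell less (log2 -0.82, adjusted p = 0.022), and Hif3a fell by 1.71, though its other tested probe did not pass (0.24).

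Endothelial genes were mostly lower in hyperoxia. Of 25 pan-endothelial markers 24 were tested, and 16 fell, 1 rose and 7 did not pass, with a median of -0.89 (-0.81 with 1 gene at its limit), and their summed log2 signal was 16.39 to 16.52 in normoxia and 15.54 to 15.84 in hyperoxia. The defining markers were still detected. The junctional cadherin gene Cdh5 was at 12.69, 12.73 and 12.52 as compared to 11.71, 12.25 and 11.49, a 1.77-fold fall, and Pecam1 fell 1.72-fold. The other tested probe of Cdh5 had a log2 change of -0.92 and did not pass. The call of Cdh5 was lost without normoxia replicate 1 or 2 or hyperoxia replicate 1 or 3 (adjusted p of 0.0584 to 0.0692), and that of Pecam1 without normoxia replicate 2 or hyperoxia replicate 1 or 3 (0.0573 to 0.0632). Larger falls were those of receptors. Tek, the angiopoietin receptor, fell 5.48-fold from 11.74, 11.95 and 11.65 to 9.11, 9.79 and 9.08, and Calcrl, the adrenomedullin receptor, fell 5.56-fold from 8.93, 8.69 and 8.39 to 5.82, 6.58 and 6.19. No hyperoxia array of either reached the normoxia range. Vwf, von Willebrand factor, fell 3.34-fold from 11.63, 11.68 and 11.61 to 9.78, 9.79 and 10.13. The transcription factor genes Sox17 and Sox18 fell by 1.27 and 1.30, and Sox7 by 1.73, with another tested probe at -0.26 and not past the test. Kdr (-0.19), the main VEGF receptor, and Emcn (-0.26) did not pass. No probe of Kdr had a detection p under 0.01 on all 3 arrays of either group, so a change in it could be missed.

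Of 12 tested markers of general capillary cells 8 fell, 2 rose and 2 did not pass (median -1.67), and of 9 of the alveolar capillary cells called aerocytes 5 fell, 0 rose and 4 did not pass (median -0.65). Gpihbp1, which holds lipoprotein lipase on capillaries, fell 5.55-fold from 11.41, 11.29 and 11.34 to 8.55, 8.81 and 9.27, and Aplnr, the apelin receptor, fell 5.66-fold from 9.85, 10.32 and 10.08 to 7.20, 7.66 and 7.88. Ednrb, the endothelin B receptor of aerocytes, fell 3.28-fold from 11.54, 11.53 and 11.38 to 9.57, 9.83 and 9.91. These groups did not overlap. Car4, the carbonic anhydrase of aerocytes, fell by 1.34 and Cyp4b1 by 1.93. Tbx2 fell by 1.13, while its other tested probe did not pass (-0.05). Edn1, endothelin 1, rose by 1.34. Of 11 tested arterial markers 6 fell and 0 rose (median -1.21), with the connexin gene Gja4 down by 1.61, the semaphorin gene Sema3g by 1.32 and Efnb2 by 1.21. Of the venous and lymphatic lists, 2 of 6 and 1 of 8 tested genes fell. Stab1, the lymphatic list's fall, lost its call when the mean of all its probes was used (adjusted p = 0.325), and Slc6a2, down by 2.60, had another tested probe at -0.20 that did not pass.

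Among the ligands and receptors of vascular growth, falls outnumbered rises. Of 19 tested genes of the VEGF, angiopoietin and apelin systems 9 fell, 2 rose and 8 did not pass. Pgf, a ligand of the VEGF receptor FLT1, was at 6.28, 5.50 and 6.12 in normoxia and at 9.51, 9.18 and 9.32 in hyperoxia, a 10.3-fold rise, and Flt1 fell by 1.04. Angpt2, the destabilising ligand of TEK, rose 2.15-fold from 10.02, 10.56 and 10.44 to 11.57, 11.36 and 11.40, while Angpt1, its stabilising ligand, fell 2.53-fold from 7.59, 8.13 and 7.43 to 6.81, 6.90 and 5.42. Both ligands were separate between the groups, in opposite directions, but the call of Angpt1 (adjusted p = 0.0470) was lost without any of the 3 normoxia arrays or hyperoxia replicate 3 (0.0645 to 0.184). Of 16 tested Notch pathway genes 10 fell, 0 rose and 6 did not pass, with a median of -0.79. The ligand gene Dll4 fell by 1.31 (-0.38 for its other tested probe, which did not pass), the receptor genes Notch1, Notch3 and Notch4 by 0.80, 0.89 and 0.96, and the targets Hey1 and Heyl by 2.10 and 1.33. Hey1 was at 12.39, 12.57 and 12.15 as compared to 10.22, 10.51 and 10.09. The general endothelial markers were lower on the same arrays, and their part in the Notch result was not tested.

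**Figure D4:**
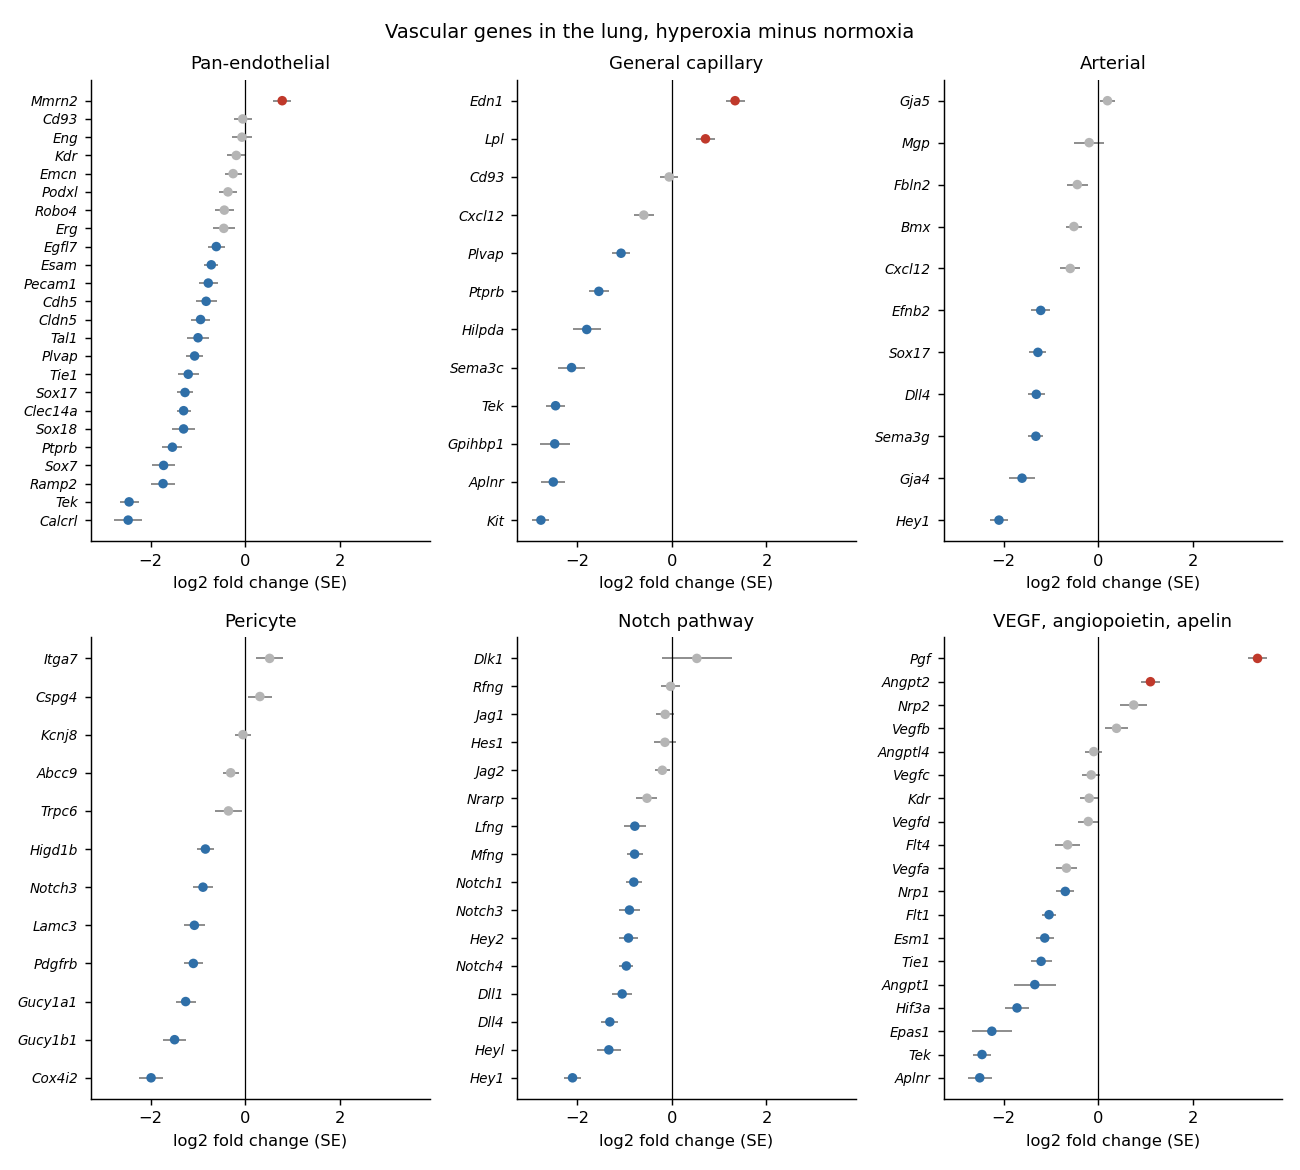
Log2 fold change, hyperoxia minus normoxia, with its standard error (x axis) for every tested gene of 6 vascular lists, in blue where lower and in red where higher at an adjusted p under 0.05 and in grey otherwise. Falls outnumber rises in each panel (16 to 1 in the pan-endothelial and 10 to 0 in the Notch list), and Pgf is the largest rise shown.

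Mesenchymal genes moved in both directions. Of 20 tested markers of lipofibroblasts and alveolar fibroblasts 9 fell, 2 rose and 9 did not pass, with a median of -0.62 and a summed signal of 16.47 to 16.60 in normoxia and 15.69 to 15.73 in hyperoxia. The transcription factor gene Tcf21 fell 2.02-fold from 11.92, 11.79 and 12.14 to 11.01, 11.01 and 10.79. Pdgfra, the platelet-derived growth factor receptor of alveolar fibroblasts, fell 3.90-fold by its brightest probe, from 11.32, 11.53 and 11.27 to 9.24, 9.59 and 9.40, and its other tested probe did not pass (0.30). Npnt likewise fell by 1.67 by its brightest probe, with -0.26 for the other. Plin2, which coats lipid droplets, rose by 0.95. Of 12 tested pericyte markers 7 fell and 0 rose, with a median of -0.87. Among them Cox4i2 fell by 1.99, the subunit genes of soluble guanylate cyclase Gucy1b1 and Gucy1a1 by 1.49 and 1.26, and Pdgfrb by 1.10.

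Actins of contractile cells and transgelin rose. Acta2, smooth muscle actin, was at 12.96, 13.08 and 13.46 in normoxia and at 14.45, 14.57 and 14.49 in hyperoxia, a 2.53-fold rise (log2 1.34, the smallest of its 4 probes, with 2.10, 2.06 and 1.82 by the others), Tagln rose 5.76-fold from 6.88, 7.48 and 7.39 to 9.81, 10.00 and 9.51, and Actg2 rose 4.89-fold from 9.68, 9.48 and 10.43 to 12.31, 11.97 and 12.17. No normoxia array reached hyperoxia in these 3. Other members of the list differed, as Mustn1 fell by 2.57 and Foxf1, a transcription factor of lung mesenchyme and endothelium, by 1.31, while Myh11 (0.47) and Wnt5a (-0.46) did not pass. In all, 5 of 14 tested genes of myofibroblasts and smooth muscle rose, 2 fell and 7 did not pass, with a median of -0.16. The rises numbered 3 without normoxia replicate 1, hyperoxia replicate 1 or hyperoxia replicate 2.

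Most genes of the alveolar lining did not pass. Of 21 tested type 2 cell genes 1 rose, 0 fell and 20 did not pass, and of 19 type 1 cell genes 2 fell and 17 did not pass. The summed signal of the type 1 genes was nonetheless lower, 16.54 to 16.64 in normoxia and 16.25 to 16.33 in hyperoxia. That of the type 2 genes was 17.08 to 17.2 and 17.2 to 17.38. Sftpc, surfactant protein C, was at 14.24, 14.28 and 14.35 in normoxia and at 14.22, 14.18 and 14.32 in hyperoxia. Ager, the type 1 cell receptor RAGE, was at 14.03, 13.87 and 14.04 as compared to 13.63, 13.68 and 13.70 (log2 -0.31, adjusted p = 0.492). The groups overlapped for Sftpc and lay apart by a small step for Ager. The type 2 gene that rose was Il33, an alarmin, from 9.22, 8.97 and 9.02 to 9.61, 10.30 and 11.03, and the type 1 genes that fell were Cav1, also a gene of capillaries, by 1.27 and Emp2 by 0.65. The call of Emp2 was lost without normoxia replicate 2 or 3 or hyperoxia replicate 1 or 2 (adjusted p of 0.0568 to 0.0875). Genes of a transitional alveolar epithelium, a state described between type 2 and type 1 cells after injury, were higher in 8 of 15 tested and lower in 0, with a median of 0.94, but Cdkn1a, Lcn2, Ccn2 and Lgals3 in that list are made by other cells too. Of its epithelial members Sfn, stratifin, was at 5.71, 5.73 and 5.76 in normoxia and at 6.75, 7.61 and 7.70 in hyperoxia, Cldn4, a claudin, rose by 1.46 and the integrin gene Itgb6 by 0.94, while the keratin genes Krt8 (0.32), Krt18 (0.45) and Krt7 (0.36) did not pass.

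In the airways, of 13 tested club and secretory cell genes 1 rose and 3 fell (1 without normoxia replicate 3 or hyperoxia replicate 3), and of 13 ciliated cell genes 1 fell. Cbr2, carbonyl reductase 2, fell by 1.16, and Cyp2f2, a club cell cytochrome, by 1.00 (13.92, 13.97 and 14.27 as compared to 13.61, 13.32 and 12.23). The call of Cyp2f2 was lost without normoxia replicate 2, normoxia replicate 3 or hyperoxia replicate 3, with an adjusted p of 0.0553 to 0.0837. Scgb1a1, the main club cell secretion, did not pass (-0.07). Reg3g, an antibacterial lectin, was at 6.60, 4.70 and 10.41 in normoxia and at 9.88, 10.94 and 9.77 in hyperoxia, overlapping groups, and its call (adjusted p = 0.0454) was lost when any of 5 single arrays was left out, with log2 values from 1.69 without normoxia replicate 2 to 4.55 without normoxia replicate 3, the setting in which it held. Slc26a4, pendrin, an anion exchanger of airway cells, rose 8.73-fold from 7.15, 5.80 and 5.41 to 8.22, 9.13 and 10.39. The water channel Aqp1 of capillaries fell by 1.12.

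Secreted WNT antagonists, clock genes and genes of lipid synthesis passed in part. Of 27 tested WNT genes 3 rose and 5 fell (3 without normoxia replicate 2), with the secreted antagonists apart from each other, since Sfrp1 rose 8.11-fold from 6.83, 6.77 and 7.41 to 9.56, 9.28 and 11.23 (log2 3.02, 2.42 without hyperoxia replicate 3 and 1.69 by its other probe) whereas Wif1 fell by 1.37 and Notum by 1.28. Of 13 tested clock genes 5 fell, Per2 by 0.85 and Ciart by 1.03 among them, and Bhlhe40 rose by 1.55, and 3 fell without normoxia replicate 2, normoxia replicate 3 or hyperoxia replicate 3. Arntl, the positive arm of the clock, did not pass (0.21). Of 17 tested genes of cholesterol and fatty acid synthesis 3 rose, Me1 as above, Lss by 1.17, with another probe at 0.27 that did not pass, and Cyp51 by 1.16. Of 14 tested metallothionein and iron genes 4 rose and 1 fell, of 13 retinoid genes 2 rose and 4 fell, and of 13 coagulation genes 3 rose (among them F13a1 and Plaur, by 1.72 and 1.12) and 2 fell (Vwf, and thrombomodulin, Thbd, by 1.21).

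**Figure D5:**
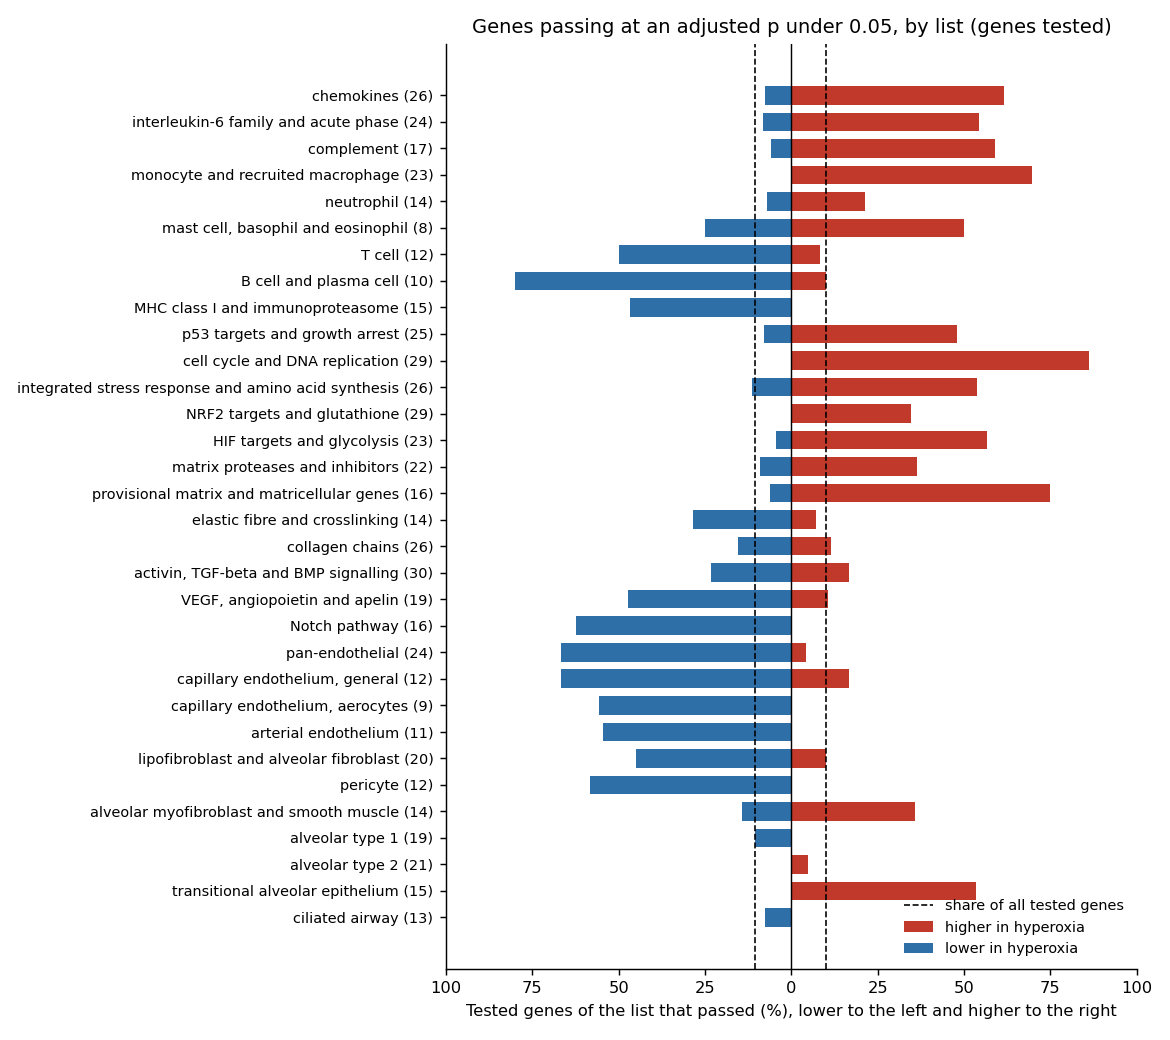
For each of 32 gene lists, named with the number of genes tested, the bars give the percentage that passed at an adjusted p under 0.05, higher in hyperoxia to the right and lower to the left, and the dashed lines give the same for all 11214 tested genes (9.90% higher, 10.6% lower). Bars to the right of the line belong mainly to inflammation, stress, cell cycle and provisional matrix, bars to the left mainly to vascular, fibroblast and lymphocyte genes, and the alveolar type 1 and 2 bars are short.

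Markers of blood, muscle and mesothelium passed in part. Of 6 tested red cell genes 0 were higher and 0 lower, with a summed signal of 15.14 to 15.43 in normoxia and 15 to 15.26 in hyperoxia. Of 13 tested genes of heart and skeletal muscle 2 fell, the atrial myosin Myl4 by 1.49 and the actin Actc1 by 1.41, and the muscle myosin Myl1 stood out on hyperoxia replicate 2 (11.53, as compared to 6.00 to 7.58 on the other 5 arrays). The call of Myl4 was lost without normoxia replicate 1, normoxia replicate 3 or hyperoxia replicate 1 (adjusted p of 0.0512 to 0.0595). Of 8 tested mesothelial genes 3 rose and 1 fell, with Msln, mesothelin, up by 1.22. Their part in the other results was not tested.

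Much of the lung response differed from that of the ileum of the same exposure, by the interaction term of the same model. Of the 2297 lung genes 2024 were also detected in ileum, and for 1245 of them (61.5%) the change differed between the tissues at an adjusted p under 0.05, as compared to 2712 of 10206 genes (26.6%) overall. The lung arrays enter both comparisons, so the first share is not independent of the lung calls. Cdkn1a changed by 3.90 in lung and by -1.22 in ileum, a difference of 5.12 (standard error 0.26, adjusted p = 1.45e-07). Saa3 changed by 3.80 and -2.70, Timp1 by 4.41 and -0.10, and Hey1 by -2.10 and 0.17.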

How the data were processed

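Lung RNA was isolated on RNeasy columns with DNase digestion, biotin-labelled and hybridised to 1-colour MouseWG-6 v2.0 bead arrays (1 array for each sample), which the authors read with GenomeStudio 2011.1. Per the labels and file headers, the deposited values used were the non-normalized mean intensity of each probe and its detection p-value. The authors' normalized intensity served as an alternative only. Intensities of all 12 arrays were background-corrected and quantile-normalized with neqc of limma 3.58.1 (R 4.3.3, offset 16, negative controls inferred from the detection p-values), which compresses low signals. A probe was tested where its detection p was under 0.05 on at least 3 of the 6 lung arrays, and the probe with the highest mean lung signal stood for its gene. Of 45281 probes, 34885 had 1 gene symbol in the platform annotation, 18 had several and 10378 had none, and the latter are not named here. Of 894 called genes with several tested probes, the 1276 other probes were called the same way in 688 cases, the opposite way in 0 and not at all in 588. The other probes are given above for some genes only.

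A linear model with 4 groups (tissue by exposure, 12 arrays) and moderated tests in limma gave hyperoxia minus normoxia in lung, with Benjamini-Hochberg adjustment over 11214 genes. The methods name a two-way analysis in GeneSpring, for which this model stands in. An exact permutation test of 3 against 3 arrays cannot go below p = 0.1 and was not used. Where all arrays of a group lacked detection, a fold was given as a limit. The code was tested on simulated data. Genes were named by their rank of change or of signal, or as members of gene lists, with a few others named after their values were seen. The members and lists were chosen with earlier results of these data known. Promoters came from RefSeq (GRCm38.p6). Alternatives covered background correction, scaling, filter, model, weights, replicate block and single arrays left out. The authors' own fold changes and p-values were not used. Precision is limited by 3 arrays for each group. Figures were drawn with matplotlib 3.10.9.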

Additional observations from a re-analysis of the deposited data

Results flagged for a closer look

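The change with exposure differed between lung and ileum for 1245 of the 2024 genes that changed in lung and were detected in ileum, by the interaction term of the model (adjusted p under 0.05). Beside the genes given above, Slc7a11 changed by 3.70 in lung and by -0.82 in ileum, Lcn2 by 2.14 and -1.39, and Acta2 by 1.34 and -0.04. Timp1 differed between the tissues by 4.51 (standard error 0.48, adjusted p = 5.69e-05). The lung arrays enter both the choice of these genes and the difference.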

How the results depend on the processing

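Of 230 named genes that passed, 219 passed in each alternative that tested them. The call was lost in 1 to 3 alternatives for 2 genes and in more than 3 for 9. Each of the 230 was tested in 20 alternatives, except Il6, which the stricter filter left out (19). The unadjusted p could not remove a call, by its construction. Of 37 named genes that did not pass, 15 passed in at least 1 alternative (the unadjusted p included), most often Vegfa (10), Cenpa (9) and Bub1b (7). The number of genes was 2297 in all, and 2281 with 75th percentile scaling, 2777 with the lung arrays normalized and fitted alone, 2271 with the authors' normalized values, 2415 with an offset of 50, 2227 without a detection filter, 2338 with a stricter one, 2023 in an ordinary linear model and 2340 with the mean of a gene's probes. Without background correction 476 genes were at least 2-fold changed, 211 higher and 265 lower, in place of 993, since that setting compresses folds by its construction. Array weights gave 3851 genes, 1967 higher and 1884 lower, and the unadjusted p gave 3647, 1826 higher and 1821 lower, which is the effect of leaving out the adjustment. The cause of the rise with array weights was not tested. Leaving out 1 array at a time gave 1612 to 1998 genes, 732 to 920 higher and 834 to 1078 lower, and 935 to 1040 at 2-fold, 427 to 509 higher and 477 to 569 lower. The labels give both groups the same replicate numbers. Deviations of same-numbered arrays correlated with r of -0.03, -0.095 and -0.15, so the numbers were not taken to pair the samples, and with the replicate block 2099 genes passed (996 higher, 1103 lower), of which 2039 were shared with the fit without it. The median change of all genes was 0.01 to 0.03 in each setting. Values that changed sign were those of Cd8b1 (-0.37 with the mean of its probes) and, among genes that did not pass, Col1a1 (0.04 without normoxia replicate 3, 0.10 without hyperoxia replicate 1, from -0.33 to 0.10 over single arrays left out), Kdr (0.03 without normoxia replicate 1, from -0.32), Mmp1a (-0.04 without normoxia replicate 1, -0.02 without hyperoxia replicate 2, up to 0.27) and Scgb1a1 (0.01 without hyperoxia replicate 2, from -0.16). No background correction moved the log2 fold changes of many genes by over 1.5 times. A fit with the bead chip as a block was not run, since the headers name no chip. Signals near background limit the folds of dim genes.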
